A study of Mus musculus with 12 samples.

Results

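The genes described here encode enzymes that make and break down heme: Alas1, Alad, Uros, Urod, Cpox, Ppox and Fech of the synthesis route, and Hmox1 and Blvrb of the breakdown route. They were taken by symbol from a table of gene expression in mouse liver, where all 9 were found among 23849 symbols. All 9 had a mean of at least 1 FPKM (a read count scaled by transcript length and by the mapped total of the library) and entered the tests, which ran on 9806 genes. Alas2, Hmox2 and Blvra, which belong to the same routes, were read beside them.

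Heme synthesis starts in the mitochondrion, where the ALA synthases join glycine and succinyl-CoA, continues in the cytosol, and ends in the mitochondrion with the insertion of iron into protoporphyrin by ferrochelatase. In liver the first step, carried out by ALAS1, sets the rate of the route, and most of the heme made there goes to cytochromes P450. Heme oxygenases open the ring to biliverdin, and biliverdin reductases turn biliverdin and related substrates into their reduced forms.

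The samples were livers of male mice of C57BL/6J background, 8 weeks old, all kept on a high-fat diet. For 2 weeks they received vehicle (Cntrl) or Libramed, a gel-forming fiber product that the study calls Policaptil Gel Retard and gave by gavage. Per the paper, the diet began before the treatment, and both groups were gavaged daily shortly before lights off. Time of day and time since the gavage therefore cannot be told apart. Livers were taken at ZT0, when lights go on, or at ZT12, when lights go off, from 3 mice in each of the 4 groups. No group on ordinary chow and no other time of day was analysed here, so values of ZT12 against ZT0 compare a pair of times and do not describe a rhythm.

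Whole liver was used as the labelled tissue, and its hepatocyte markers summed to between 41300 and 57800 FPKM in the 12 samples, although albumin (Alb) was listed at 0 in each. Read totals are not known. The relative depth read from the smallest steps of the values ran from 0.707 in Libramed ZT12 replicate 2 to 1.27 in Cntrl ZT12 replicate 2. Markers of Kupffer cells and other macrophages summed to between 36.7 and 97.9 FPKM. P-values below come from limma, 2-sided, on log2(FPKM + 1), with Benjamini-Hochberg adjustment over the genes tested. They set a difference between groups against the spread between mice within groups, which limma moderates with that of the other genes. Fold changes given as log2 differences are on that scale and understate the change of low genes.

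The promoter sequences that bear on the results below are those of Alas1, Clpx and Urod. Alas1 is shown because it moved most, Clpx because the protease subunit CLPX acts on ALA synthase protein and its mRNA moved the other way, and Urod because it holds the E-box letters bound by clock proteins. Capitals mark the match to a motif. The sequences are from RefSeq on GRCm38.p6, each written 5′ to 3′ on the strand of its gene.
Alas1, chr9:106247906-106247935, minus strand: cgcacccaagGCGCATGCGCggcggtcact
Clpx, chr9:65294010-65294259, plus strand: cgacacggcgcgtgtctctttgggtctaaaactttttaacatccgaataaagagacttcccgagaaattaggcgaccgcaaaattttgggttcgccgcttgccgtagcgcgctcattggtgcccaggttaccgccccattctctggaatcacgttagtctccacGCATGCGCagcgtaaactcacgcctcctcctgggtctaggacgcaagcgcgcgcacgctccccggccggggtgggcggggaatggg
Urod, chr4:116994414-116994663, minus strand: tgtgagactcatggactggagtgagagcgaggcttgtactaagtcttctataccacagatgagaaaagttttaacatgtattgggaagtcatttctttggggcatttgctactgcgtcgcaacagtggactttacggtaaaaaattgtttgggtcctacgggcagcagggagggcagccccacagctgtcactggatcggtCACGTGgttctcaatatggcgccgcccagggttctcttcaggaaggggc

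The windows searched ran from 250 bases before to 50 bases after each RefSeq start, and both strands were read. In the Alas1 stretch the core letters of the factor NRF1, GCGCATGC, were matched on both strands in overlapping positions that together form a palindrome. By GENCODE vM21 those 30 bases lie in the first exon of 1 longer Alas1 transcript and outside the exons of the other Alas1 transcripts. The Clpx stretch holds the same core at bases 165 to 172 and the Urod stretch holds the E-box, CACGTG, at bases 202 to 207, and neither overlaps an annotated exon. The NRF1 core was present in 2.71% of 32851 promoter windows and the E-box in 7.15%. The E-box was also found in windows of Alad and Uros, and no member's window held the D-box TTATGTAA (0.938% of windows), the CRE TGACGTCA (1.79%), AGGTCA (16.3%) or TGACNNNGC (12.4%). Windows were searched for 7 of the 9 members, and not for Fech and Hmox1. A match describes letters and not binding.

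The levels of the enzymes spanned a wide range, and FPKM is a per-length scale, so genes can be set against each other on it. Averaged over the 12 samples, Alas1 (236 FPKM) and Blvrb (231 FPKM), which encodes biliverdin reductase B, were the most abundant. Urod (122 FPKM), the uroporphyrinogen decarboxylase, came next. Alad (48.4 FPKM), Fech (44.9 FPKM) and Cpox (42.0 FPKM) were close together and their ranges over samples overlapped, as did those of Uros (17 FPKM) and Ppox (14.3 FPKM). Hmox1, the inducible heme oxygenase, was lowest at 6.88 FPKM, below the constitutive Hmox2 at 31.8 FPKM in every sample. The place of Alas1 in this order depended on the group. By group means it stood above Blvrb in Cntrl ZT12 and Libramed ZT12 and below Blvrb and Urod at ZT0 in both treatments. In Libramed ZT12 replicate 1 the order was reversed, with Alas1 at 160 FPKM and Blvrb at 250 FPKM.

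The members also differed in how far their level moved across the 12 samples. The highest value of Alas1 was 22.2 times its lowest, and by the SD of log2(FPKM + 1) over the samples it ranked 54 of the 9806 genes tested. The ratio was 2.60 for Hmox1, 1.68 for Cpox, 1.60 for Blvrb, and between 1.24 (Urod) and 1.42 (Uros) for the remaining members. The plot of each member's values by group shows this contrast.

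**Figure D1:**
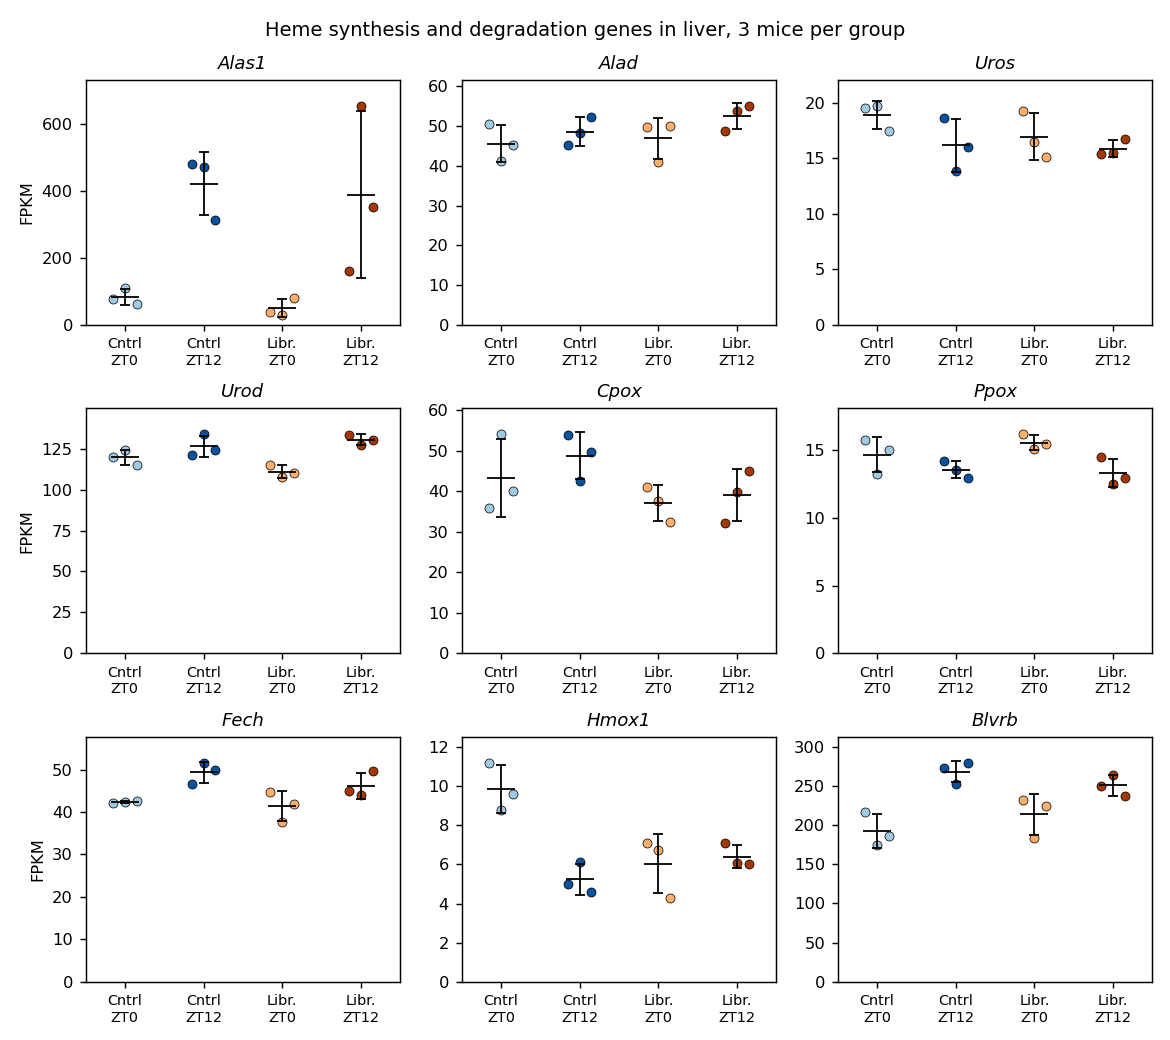
FPKM of the members in each of the 12 mice, by group, with 1 panel per gene and a vertical axis from 0; the long horizontal line is the mean and the whiskers are the SD of 3 mice. Alas1 is the only panel in which the ZT12 mean of each treatment stands several-fold above its ZT0 mean. Hmox1 is highest in the 3 Cntrl ZT0 mice.

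Alas1 (chr9:106233455-106248654, minus strand of mm10) was higher at ZT12 than at ZT0 in each treatment. In Cntrl mice it was 78.5, 111 and 61.2 FPKM at ZT0 and 481, 471 and 314 FPKM at ZT12. In Libramed mice it was 38.2, 29.5 and 81.0 FPKM at ZT0 and 160, 654 and 352 FPKM at ZT12. No ZT0 value of either treatment reached a ZT12 value of either treatment. The group means were 83.4 ± 25.1 and 422 ± 93.4 FPKM (SD, n = 3) in Cntrl, and 49.5 ± 27.6 and 389 ± 249 FPKM (SD, n = 3) in Libramed. The ratio of the means was 5.06 in Cntrl and 7.85 in Libramed.

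On the log2 scale the Alas1 difference between times was 2.34 (SE 0.25) in Cntrl, with a limma adjusted p of 0.00527. It was 2.86 (SE 0.547) in Libramed, with a limma adjusted p of 0.0195, and 2.60 over both treatments, with a limma adjusted p of 0.000246. The Libramed ZT12 group was the most scattered, and its highest value, 654 FPKM, came from the library with the lowest relative depth, 0.707. The call in Libramed was lost when Libramed ZT0 replicate 1 (adjusted p = 0.0609), Libramed ZT0 replicate 2 (adjusted p = 0.0652) or Libramed ZT12 replicate 3 (adjusted p = 0.0639) was left out, and the difference stayed between 2.37 and 3.38. The call in Cntrl held without any 1 library.

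The middle steps of synthesis moved little. Of ZT12 against ZT0 in Cntrl, 3 of the 9 members passed an adjusted p of 0.05, against 10.4% of all genes tested, namely Alas1 and Blvrb (higher) and Hmox1 (lower). In Libramed 1 of the 9 passed, Alas1, against 12.4% of all genes. Over both treatments 5 of 9 passed, against 30.0% of all genes: Alas1, Urod, Fech and Blvrb were higher and Hmox1 lower. The median log2 difference of the members was 0.09 in Cntrl, 0.16 in Libramed and 0.13 over both, beside 0.008, 0.013 and 0.008 over all genes tested. These comparisons share samples and are not independent of each other.

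By non-overlap of the groups, 4 of 9 members were separate between times in Cntrl (33.2% of all genes tested) and 4 of 9 in Libramed (34.9%). In Cntrl these were Alas1, Blvrb and Fech, higher, and Hmox1, lower. In Libramed they were Alas1, Blvrb and Urod, higher, and Ppox, lower. The members' shares thus lie near those of all genes.

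Fech encodes ferrochelatase, the final enzyme, and lies on chromosome 18. It was 42.1, 42.5 and 42.5 FPKM in Cntrl ZT0 and 46.7, 51.6 and 49.8 FPKM in Cntrl ZT12. In Libramed it was 44.7, 37.6 and 42.0 FPKM at ZT0 and 45.1, 43.9 and 49.7 FPKM at ZT12, where the groups overlapped. Over both treatments the log2 difference was 0.18, with a limma adjusted p of 0.0313, whereas within Cntrl alone the adjusted p was 0.116.

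Urod (chr4:116989965-116994413) was 115, 108 and 110 FPKM in Libramed ZT0 and 134, 127 and 131 FPKM in Libramed ZT12, groups that did not overlap. In Cntrl it was 120, 124 and 115 FPKM at ZT0 and 121, 134 and 125 FPKM at ZT12, and the groups overlapped. The log2 difference over both treatments was 0.15 (limma adjusted p = 0.0353) and that within Libramed 0.23 (limma adjusted p = 0.0801). The call of Urod over both treatments was lost without any 1 of 8 libraries, namely Cntrl ZT0 replicate 3, Libramed ZT0 replicates 2 and 3, Cntrl ZT12 replicates 2 and 3, and the 3 of Libramed ZT12, with adjusted p up to 0.0885. That of Fech was lost without the same libraries other than Libramed ZT12 replicates 1 and 2, with adjusted p up to 0.0748.

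Ppox, the protoporphyrinogen oxidase, had the opposite sign. It was 16.2, 15.1 and 15.5 FPKM in Libramed ZT0 and 14.5, 12.5 and 12.97 FPKM in Libramed ZT12, a log2 difference of -0.21 with a limma adjusted p of 0.145. In Cntrl its means were 14.7 ± 1.29 and 13.6 ± 0.642 FPKM (SD, n = 3), with overlapping values. Ppox shares 907 bases with B4galt3 on the opposite strand, and the sources differ on whether the libraries keep strand, so reads of that stretch may belong to either gene. The same holds for the bases that Alas1 shares with 4930500F10Rik (695), Uros with Bccip (740), Cpox with Gpr15 (204), Hmox2 with Cdip1 (16395) and Clpx with the pseudogene Gm16218 (388), each on the opposite strand.

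Alad, which makes porphobilinogen, Uros, the uroporphyrinogen III synthase, and Cpox, the coproporphyrinogen oxidase, did not pass in any comparison between times. Alad ran from 41.1 to 55.1 FPKM over all samples, Uros from 13.9 to 19.7 FPKM and Cpox from 32.2 to 54.0 FPKM.

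Hmox2, Blvra and Alas2, read beside the members, did not pass an adjusted p of 0.05 in any comparison. Alas2, the ALA synthase of red cell precursors, had means between 69.4 and 84.3 FPKM in the 4 groups. It lies wholly within Apex2, on the opposite strand, so that its value is uncertain where strand was not used in counting.

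**Figure D2:**
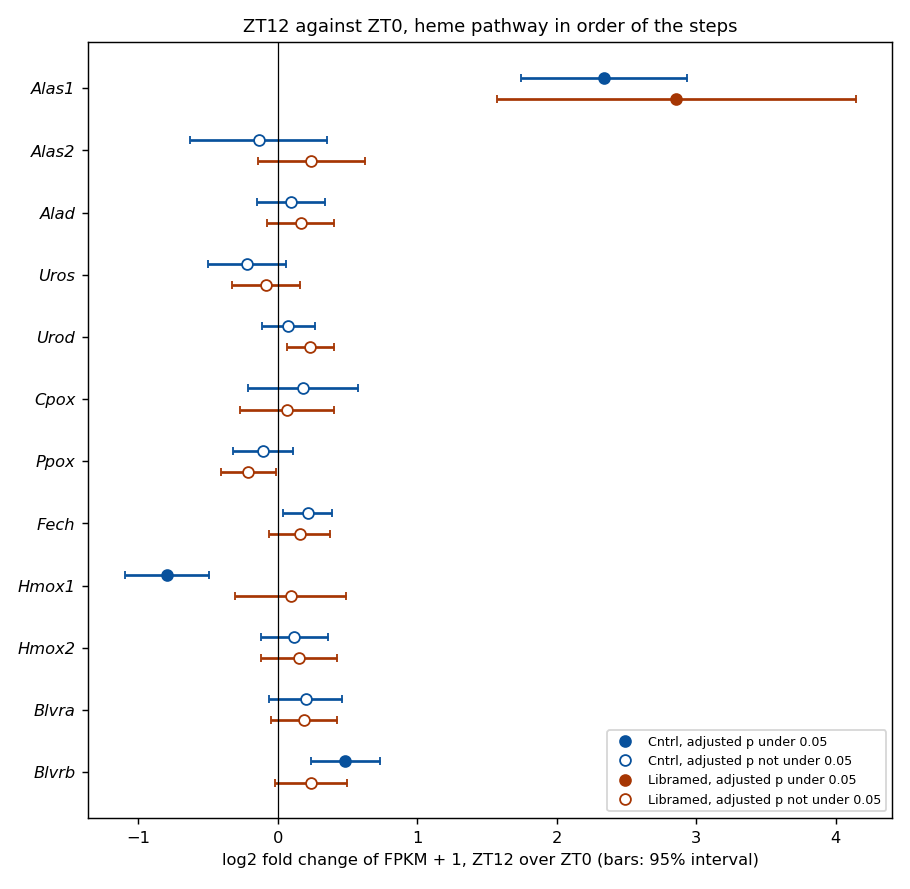
Log2 difference of ZT12 against ZT0 for the members and for Alas2, Hmox2 and Blvra, by treatment, on log2(FPKM + 1), with points at the estimate and bars for the 95% interval of limma fits of 6 mice. Alas1 lies far to the right in both treatments, at 2.34 and 2.86, and the estimates of the other enzymes lie within 1 of zero.

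Blvrb (chr7:27447978-27466144) was higher at ZT12. It was 216, 174 and 186 FPKM in Cntrl ZT0 and 272, 253 and 280 FPKM in Cntrl ZT12, and 233, 184 and 225 FPKM in Libramed ZT0 and 250, 265 and 238 FPKM in Libramed ZT12. The ZT12 mice were above the ZT0 mice in both treatments. The log2 difference was 0.48 in Cntrl (limma adjusted p = 0.0341), 0.24 in Libramed (adjusted p = 0.208) and 0.36 over both (adjusted p = 0.00499). The call in Cntrl was lost without any 1 library other than Cntrl ZT0 replicate 1, with adjusted p up to 0.122 without Cntrl ZT12 replicate 3. The call over both was kept in all 19 alternatives.

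Hmox1 (chr8:75093621-75100589, plus strand) was highest in vehicle-treated mice at ZT0. It was 11.2, 8.76 and 9.58 FPKM in Cntrl ZT0 and 4.99, 6.14 and 4.61 FPKM in Cntrl ZT12. In Libramed it was 7.12, 6.73 and 4.29 FPKM at ZT0 and 7.08, 6.08 and 6.03 FPKM at ZT12. The 3 Cntrl ZT0 mice were above all 9 others, and the other 3 groups overlapped.

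The log2 difference of Hmox1 between times was -0.80 (SE 0.127) in Cntrl, with a limma adjusted p of 0.0141. That call was lost without Cntrl ZT0 replicate 3 (adjusted p = 0.0601) or without Cntrl ZT12 replicate 3 (adjusted p = 0.0567). In Libramed the log2 difference was 0.09, with a limma adjusted p of 0.765, and it was -0.10 without Libramed ZT0 replicate 3. The difference between these changes, tested as the interaction of time and treatment, was 0.89 (SE 0.224, 95% interval 0.40 to 1.38), with an unadjusted p of 0.00211 and a limma adjusted p of 0.519. It thus did not pass over all genes. Over both treatments the log2 difference between times was -0.35 (limma adjusted p = 0.0348), a call lost without any 1 of 8 libraries, namely Cntrl ZT0 replicates 1 and 3, Libramed ZT0 replicates 1 and 2, Cntrl ZT12 replicates 1 and 3, and Libramed ZT12 replicates 2 and 3, with adjusted p up to 0.0814.

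The question of the study was what the fiber product does to the liver on a high-fat diet at the start and the end of the light phase. No member passed an adjusted p of 0.05 for Libramed against Cntrl at ZT0, at ZT12 or over both times, or for the interaction, and by limma 0% of all genes tested did in each of the 4 comparisons. At an unadjusted p under 0.05 there was 1 of 9 members at ZT0 (9.23% of all genes), 0 of 9 at ZT12 (6.74%), 1 of 9 over both times (10.5%) and 1 of 9 for the interaction (6.63%). The groups did not overlap for 2 of 9 members at ZT0 (15.1% of all genes), Hmox1 and Urod, both lower, and for 0 of 9 at ZT12 (13.1%).

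At ZT0 the mean of Hmox1 was 9.84 ± 1.23 FPKM in Cntrl and 6.05 ± 1.53 FPKM in Libramed (SD, n = 3), a ratio of 0.614. The log2 difference was -0.64 (SE 0.178, 95% interval -1.06 to -0.22), with an unadjusted p of 0.00838 and a limma adjusted p of 0.456. At ZT12 the means were 5.25 ± 0.795 and 6.40 ± 0.592 FPKM, a log2 difference of 0.25 with an adjusted p of 0.729.

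Alas1 was lower on average in Libramed at both times, with log2 differences of -0.83 at ZT0 (unadjusted p = 0.0624, limma adjusted p = 0.573) and -0.32 at ZT12 (unadjusted p = 0.529). At ZT12 the sign rested on 1 mouse: without Libramed ZT12 replicate 1, at 160 FPKM, the difference was 0.21. At ZT0 the difference was -1.25 without Libramed ZT0 replicate 3 and -0.53 without Libramed ZT0 replicate 2. The interaction for Alas1 was 0.52, with an unadjusted p of 0.458, and single mice moved it widely, from 0.03 without Libramed ZT12 replicate 2 to 1.04 without Libramed ZT12 replicate 1. It also moved without Cntrl ZT0 replicate 2 (0.29), Libramed ZT0 replicate 2 (0.22), Libramed ZT0 replicate 3 (0.93) or Cntrl ZT12 replicate 3 (0.32). Cpox was 35.8, 54.0 and 40.0 FPKM in Cntrl ZT0 and 53.9, 42.5 and 49.8 FPKM in Cntrl ZT12, against 41.1, 37.6 and 32.4 FPKM in Libramed ZT0 and 32.2, 39.9 and 45.0 FPKM in Libramed ZT12. The log2 difference of Cpox over both times was -0.26, with an unadjusted p of 0.0472 and a limma adjusted p of 0.476.

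For the 7 members other than Alas1 and Hmox1, the lowest and highest bounds of their 95% intervals of the treatment difference ran from -0.60 to 0.46 at ZT0 and from -0.65 to 0.31 at ZT12 on the log2 scale. A p above the threshold does not show that these genes were equal in the treatments.

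**Figure D3:**
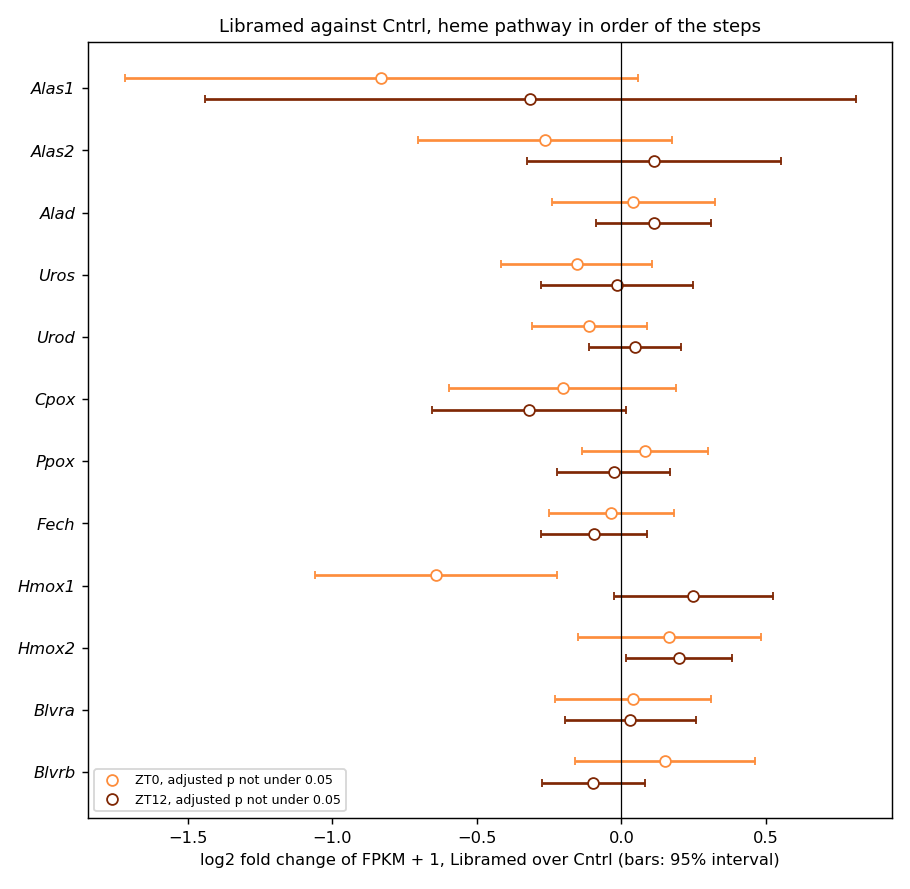
Log2 difference of Libramed against Cntrl at ZT0 and at ZT12 for the members and for Alas2, Hmox2 and Blvra, on log2(FPKM + 1), with the 95% interval of limma fits of 6 mice. The interval of Hmox1 at ZT0, from -1.06 to -0.22, lies below zero, and the Alas1 intervals are the widest.

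Hmox1 is expressed by liver macrophages as well as by hepatocytes, and macrophage markers were therefore read beside it. In whole liver, fewer cells of a type and less RNA per cell cannot be told apart. All 13 markers on the list were in the table, none at 0 in every sample, and 8 were tested. At ZT0 all 8 were lower in Libramed than in Cntrl. Of them 5 had an unadjusted limma p under 0.05, against 9.23% of all genes tested, and 0 an adjusted p under 0.05, against 0%. Their median log2 difference was -0.47 beside -0.02 over all genes tested. The summed markers ran from 73.7 to 85.7 FPKM in Cntrl ZT0, from 42.8 to 68.4 FPKM in Libramed ZT0, from 36.7 to 97.9 FPKM in Cntrl ZT12 and from 46.7 to 71.5 FPKM in Libramed ZT12.

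Between times in Cntrl all 8 markers had a negative sign, with a median log2 difference of -0.36. None had an unadjusted p under 0.05, against 27.4% of all genes tested. The highest marker sum of all, 97.9 FPKM, was in Cntrl ZT12 replicate 1, in which Hmox1 was 4.99 FPKM. For the interaction all 8 had a positive sign, with a median of 0.34 and none at an unadjusted p under 0.05 (6.63% of all genes tested). The part of the macrophages in the Hmox1 differences was not tested.

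**Figure D4:**
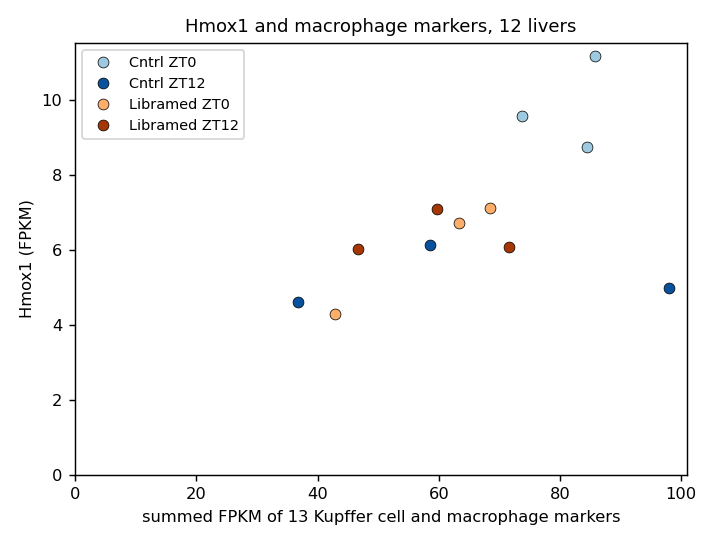
Hmox1 (FPKM, vertical axis) against the summed FPKM of the macrophage markers (horizontal axis) in the 12 mice, coloured by group. The 3 Cntrl ZT0 mice lie together at 73.7 to 85.7 FPKM of markers with Hmox1 from 8.76 to 11.2 FPKM, and the mouse with the highest marker sum, 97.9 FPKM, has Hmox1 at 4.99 FPKM.

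Genes that act on the routes were read from lists written by hand. Of 17 tested genes for transport and binding of heme and porphyrins, 6 were higher and 3 lower at ZT12 over both treatments at an adjusted p under 0.05 (30.0% of all genes tested passed there), with a median log2 difference of 0.13 beside 0.008 over all genes tested. Clpx was 53.1, 82.3 and 89.5 FPKM in Cntrl ZT0 and 22.9, 24.2 and 27.1 FPKM in Cntrl ZT12. In Libramed it was 64.0, 65.1 and 55.5 FPKM at ZT0 and 27.7, 21.6 and 24.5 FPKM at ZT12, again with no overlap between times.

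The log2 difference of Clpx was -1.53 in Cntrl (limma adjusted p = 0.00803), -1.29 in Libramed (adjusted p = 0.00184) and -1.41 over both (adjusted p = 1.9e-05). Clpx and Alas1 had opposite signs in both treatments, and the Clpx calls held under every alternative run. The other genes of this list with the smallest p were Slc25a37, a mitochondrial iron importer (0.56 over both, adjusted p = 0.000303), Hebp1, a heme-binding protein (0.29, adjusted p = 0.00405), and Slc48a1, a heme transporter (0.25, adjusted p = 0.00728). Abcg2, a porphyrin exporter (0.58, adjusted p = 0.0094), was also higher. Slc25a38, the mitochondrial glycine importer of heme synthesis (-0.17, adjusted p = 0.0433), was lower.

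Of 15 tested regulators of Alas1 and Hmox1, 5 were higher and 3 lower over both treatments, against the same 30.0% of all genes, with a median log2 difference of 0.13. Nr1d1, the heme-binding clock repressor REV-ERBα, was 56.7, 33.7 and 21.4 FPKM in Cntrl ZT0 and 12.8, 5.65 and 7.22 FPKM in Cntrl ZT12. In Libramed it was 41.2, 43.2 and 57.8 FPKM at ZT0 and 7.29, 4.69 and 7.003 FPKM at ZT12. Its log2 difference over both treatments was -2.35 (limma adjusted p = 4.54e-05). Arntl (-1.50, adjusted p = 8.48e-05) and Clock (-0.54, adjusted p = 0.000412), the core clock activators, were lower too.

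The nuclear receptors that induce cytochromes P450 and Alas1 were higher at ZT12. Nr1i3, which encodes CAR, had means of 121 and 272 FPKM at ZT0 and ZT12 in Cntrl and 129 and 241 FPKM in Libramed, a log2 difference of 1.01 over both (limma adjusted p = 0.000142). Nr1i2, which encodes PXR, had means of 21.4 and 44.0 FPKM in Cntrl and 30.4 and 53.3 FPKM in Libramed (0.90 over both, adjusted p = 0.000175). Foxo1, which takes part in Alas1 induction on fasting, was 0.61 higher (adjusted p = 0.000644). Nrf1, whose core letters are in the Alas1 and Clpx stretches, was at 2.21 and 1.98 FPKM in Cntrl and 2.21 and 2.83 FPKM in Libramed, and did not pass.

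**Figure D5:**
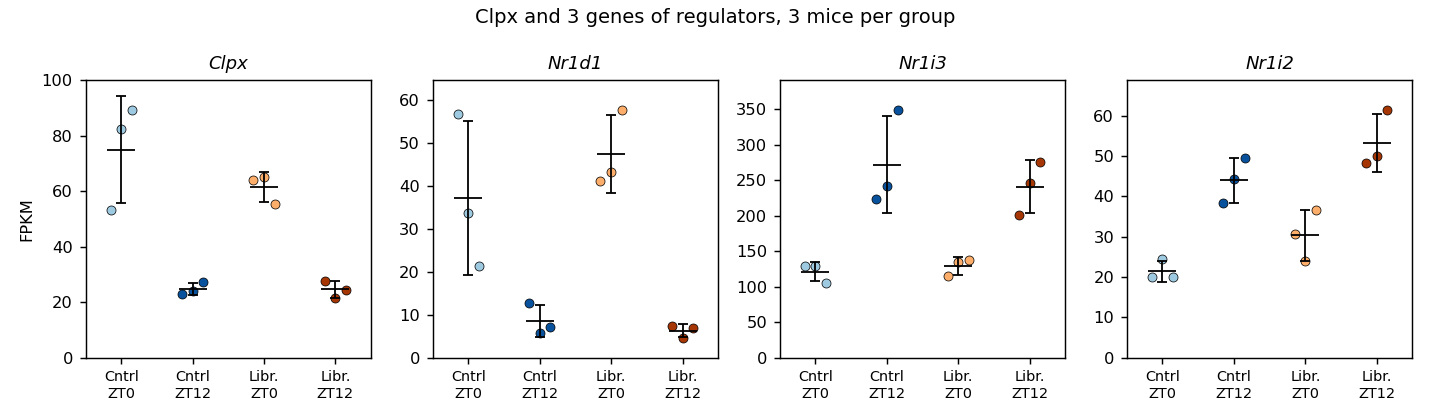
FPKM of Clpx, Nr1d1, Nr1i3 and Nr1i2 in each of the 12 mice by group, with the mean and SD of 3 mice and vertical axes from 0. Clpx and Nr1d1 are lower, and Nr1i3 and Nr1i2 higher, in the ZT12 mice than in the ZT0 mice of the same treatment, with no overlap.

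Downstream of biliverdin reductase, 2 of 6 tested genes for bilirubin handling were higher over both treatments and 0 lower, with a median log2 difference of 0.26. That share lies near the 30.0% of all genes that passed. Abcc3, an exporter of conjugates to blood, had means of 20.4 and 49.2 FPKM at ZT0 and ZT12 in Cntrl and 28.2 and 38.4 FPKM in Libramed (0.83 over both, limma adjusted p = 0.000733). The other was a row that names Ugt1a1, which conjugates bilirubin, together with other Ugt1a genes that share exons, so the value cannot be given to 1 of them.

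Of 8 targets of NRF2 and BACH1 other than Hmox1, 1 was higher and 1 lower over both treatments, beside 30.0% of all genes, with a median log2 difference of 0.07. Gclc, which makes glutathione's precursor, was lower (-0.52, limma adjusted p = 0.00117), and Slc40a1, the iron exporter ferroportin, was higher (0.49, adjusted p = 0.0328). No gene of these lists passed an adjusted p of 0.05 for Libramed against Cntrl or for the interaction. At ZT0, an unadjusted p under 0.05 was reached by 3 of the 17 transport and binding genes, 2 of the 15 regulators, 1 of the 6 bilirubin genes and 0 of these 8 targets, against 9.23% of all genes. At ZT12 all 8 of these targets had a negative sign for Libramed against Cntrl, 3 of them at an unadjusted p under 0.05 (6.74% of all genes), with a median of -0.13 beside -0.014 over all genes tested, while Hmox1 had a positive sign.

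Over the 12 samples, the genes most like Alas1 by Pearson r of log2(FPKM + 1) were Zfp445 (0.955), Mpv17l (0.951), Map2k3 (0.943), Gm14403 (0.936) and Gde1 (0.933). Each had a higher mean at ZT12 than at ZT0 in both treatments. Those most like Hmox1 were Cxcl1 (0.906), Zbtb5 (0.892), Mrap (0.89), Gm20257 (0.872) and Enthd2 (0.87). Cxcl1, a neutrophil chemokine, had means of 30.0, 5.14, 11.8 and 6.70 FPKM in Cntrl ZT0, Cntrl ZT12, Libramed ZT0 and Libramed ZT12. These r values describe samples that share group and library, and they were chosen as the highest of 9806.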

How the data were processed

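Liver RNA of 12 mice was measured by RNA-seq, 3 mice in each of 4 groups taken from the labels. Per their methods, the authors mapped single-end reads to mm10 with ELAND and used those that aligned uniquely. Their processing notes name TopHat and Cuffnorm instead, without versions. The deposited unit is FPKM, called RPKM in the methods. The labels name an mRNA kit that does not keep strand and the methods a stranded one, and use of strand in counting is not given in the sources used here.

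Of 24138 lines, 289 repeated a symbol, and only the line of highest mean entered, leaving 23849 symbols. The 9806 genes that averaged 1 FPKM or more were put on a log2(FPKM + 1) scale and fitted with limma 3.58.1 under R 4.3.3, using an eBayes trend. ZT12 against ZT0 within a treatment and Libramed against Cntrl within a time were fitted on 6 samples, and the other comparisons on 12. The code was tested on simulated data. Positions are from GENCODE vM21 (mm10), promoters from RefSeq (GRCm38.p6).

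The members and lists were chosen with earlier results of these data known. Named genes are all members, up to 6 genes per list with an adjusted p under 0.05 in any comparison and the smallest p, and the 5 genes with the highest r for Alas1 and for Hmox1. Nrf1, Hpx, the hemoglobin row, Alas2, Hmox2 and Blvra were named beside these after their values were seen. Some genes of the lists are not reported here by name. Alternatives changed the pseudocount (0.1), the minimum (none, or 5 FPKM), the trend, the scaling, the samples fitted, and the replicate block, and left out each library in turn.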

Additional observations from a re-analysis of the deposited data

Results flagged for a closer look

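The change of Hmox1 from ZT0 to ZT12 differed between the treatments by an interaction of 0.89 on the log2 scale (limma, unadjusted p = 0.00211, adjusted p = 0.519). It was drawn out because the test of the difference itself was under 0.05 before adjustment, and 6.63% of all genes tested were as well. The change was -0.80 in Cntrl and 0.09 in Libramed.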

How the results depend on the processing

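Of 584 values of single genes under alternatives, 526 kept their direction and side of the threshold, 47 lost a call, 9 gained one and 2 changed sign. In Cntrl, 1 of 9 members passed between times with no minimum FPKM and 1 with the replicate block, and 1 to 3 when single libraries were left out, against 3. In Libramed the count was 0 with no minimum, 2 when all 12 samples were fitted together and 0 to 1 without single libraries, against 1. Over both treatments it was 2 to 6 without single libraries, against 5. With no minimum more genes were tested, and without a library fewer samples were. The cause was otherwise not tested.

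The sign changed for Hmox1 between times in Libramed, with -0.101 without Libramed ZT0 replicate 3 (range without single libraries -0.101 to 0.207), and for Alas1 between treatments at ZT12, with 0.212 without Libramed ZT12 replicate 1 (range -0.802 to 0.212). The calls of Alas1 and Blvrb over both treatments held under all 19 alternatives, whereas Urod lost its call in 9, Hmox1 in 9 and Fech in 7. No member passed an adjusted p of 0.05 between treatments or for the interaction under any alternative run.

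Replicate numbers showed no sign of pairing the mice: of 18 same-numbered pairs, 4 had a correlation of deviations over 0.1, against 14 of 36 others. With 3 mice a group, that check cannot show that pairing is absent. The replicate block left Alas1 alone past the threshold in Cntrl. Unknown read totals and 3 mice a group limit what small differences can be seen.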

Other observations

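Markers of red blood cells, the hemoglobin genes among them, summed to between 335 and 804 FPKM in Cntrl ZT0, 263 and 485 FPKM in Cntrl ZT12, 651 and 728 FPKM in Libramed ZT0, and 421 and 656 FPKM in Libramed ZT12. Tests ran on 5 of the 9 that the table held, and none passed an adjusted p of 0.05 in limma between treatments. At ZT0, 1 of the 5 had an unadjusted p under 0.05, against 9.23% of all genes tested. By sign 4 of the 5 were higher in Libramed at ZT0, with a median log2 difference of 0.52. Alas2 was lower, with means of 84.3 FPKM in Cntrl and 69.4 FPKM in Libramed. The sums include Alas2, whose value is uncertain as given above. The largest of the 5 differences at ZT0, 1.05 on the log2 scale, was in the row of Hba-a1 and Hba-a2. That row had means of 109 ± 60.8 FPKM in Cntrl and 205 ± 20.2 FPKM in Libramed (SD, n = 3). Hpx, which binds free heme in plasma, was 6760 ± 494 FPKM in Cntrl and 4140 ± 547 FPKM in Libramed at ZT0, groups that did not overlap (log2 difference -0.71, limma unadjusted p = 0.0012, adjusted p = 0.295).

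The glycine importer Slc25a38 was 26.0 ± 1.46 FPKM in Cntrl ZT0, 19.5 ± 0.567 FPKM in Cntrl ZT12, 19.5 ± 1.55 FPKM in Libramed ZT0 and 20.2 ± 1.38 FPKM in Libramed ZT12 (SD, n = 3). Its log2 difference between times was -0.40 in Cntrl (limma adjusted p = 0.0271) and 0.05 in Libramed (adjusted p = 0.745). The interaction of time and treatment for Slc25a38 was 0.45 and did not pass an adjusted p of 0.05. As for Hmox1, the Cntrl ZT0 mice were the highest group.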
